A study of Mus musculus with 42 samples.

Results

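This report describes 10 genes of the mouse kidney: the Sox transcription factor genes Sox4, Sox6, Sox8, Sox9, Sox11 and Sox12, the Runx genes Runx1, Runx2 and Runx3, and Cbfb, which encodes the common partner of the RUNX proteins. They were taken by symbol from the 40701 symbols of the deposited count table, and all 10 were found. The set was selected on values from these same libraries: Runx1, Sox8 and Sox11 had stood out by the size of their change with obstruction in proximal tubule RNA, and the others were added as relatives. The changes of the 10 genes between kidney states in proximal tubule RNA are therefore given as a description without a test.

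SOX proteins bind DNA through an HMG box and fall into groups that share sequence and often function. Sox4, Sox11 and Sox12 form the SoxC group, known from progenitor cells of many organs, Sox8 and Sox9 belong to SoxE, and Sox6 to SoxD. Sox9 marks progenitors in kidney development and is switched on in tubule cells after injury. RUNX proteins bind DNA through a Runt domain, and CBFβ strengthens that binding without touching DNA itself. Runx1 is best known from blood formation, Runx2 from bone and Runx3 from T cells and neurons.

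Mice were 12 weeks old, 1 ureter had been obstructed, and RNA of the renal cortex was sequenced. The groups were the obstructed kidney at day 5, the obstructed kidney at day 10 and the contralateral kidney, which served as the healthy control and for which no day is given. RNA came as 2 fractions. The fraction labelled proximal tubule (PT) was bound to anti-GFP beads, a method called translating ribosome affinity purification that pulls down GFP-tagged ribosomes with their RNA. The other, labelled total kidney, is called Total here. The promoter that drove the tag and the mouse strain are not given in the sources used here, and all PT libraries rest on the tag. Each state and fraction held 3 female and 4 male libraries. The labels do not say whether replicates came from separate mice, so p-values measure the spread between these libraries.

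The 42 libraries held between 9.31 and 43.6 M counts each, with a median of 18.5 M. Levels are counts per M counts scaled by TMM factors (CPM), and only RPKM, which divides by gene length, is used to compare genes with each other. A call needed a change of at least 2-fold together with p under 0.05 after Benjamini-Hochberg adjustment, by the quasi-likelihood test of edgeR. Changes are log2 fold changes ± standard error. The PT label was checked against 10 proximal tubule markers, whose summed level had a median of 15100 CPM in PT and 8810 CPM in Total of contralateral kidneys. Their median PT minus Total difference there was 0.76 on the log2 scale, and none of the 10 was called. All 13 macrophage, 9 fibroblast and 7 endothelial markers were called lower in PT there, where 22.9% of all genes were. With obstruction the proximal tubule sum fell to a median of 2420 CPM in PT at day 5 and 2180 CPM at day 10. All 10 of these markers were called lower at both days, where 12.4% and 12% of all genes were. The level of Lars2, the mitochondrial leucyl-tRNA synthetase, ran from 2620 to 43600 CPM over the PT libraries and from 1710 to 30800 CPM over the Total libraries, and its values are given below where they move with a result.

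Within the set, the order of levels per gene length differed between obstructed and contralateral PT. At day 5 Sox9 had the highest mean, 19.3 ± 9.63 RPKM (SD, n = 7), followed by Cbfb at 11.2 ± 3.14, Sox4 at 6.33 ± 2.59, Sox6 at 3.78 ± 0.771, Runx1 at 3.44 ± 1.38, Sox11 at 2.85 ± 1.62 and Sox12 at 2.65 ± 0.619 RPKM. The ranges of every neighbouring pair down to Sox12 overlapped. Sox8 followed at 0.266 ± 0.0739 RPKM, below every Sox12 value, and Runx2 and Runx3 lay at 0.0967 ± 0.0243 and 0.0546 ± 0.0401 RPKM. At day 10 the first 7 genes kept this order and Sox8 reached 1.24 ± 0.6 RPKM. In contralateral PT Sox6 led with 5.64 ± 1.16 RPKM, then Cbfb with 3.04 ± 0.902 and Sox12 with 1.41 ± 0.236 RPKM. All the others averaged 0.184 RPKM or less there. In Total, Cbfb led at both days, with 16.7 ± 5.68 RPKM at day 5 and 17.1 ± 3.35 at day 10, and Sox6 led in contralateral kidneys with 6.99 ± 1.28 RPKM.

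**Figure D1:**
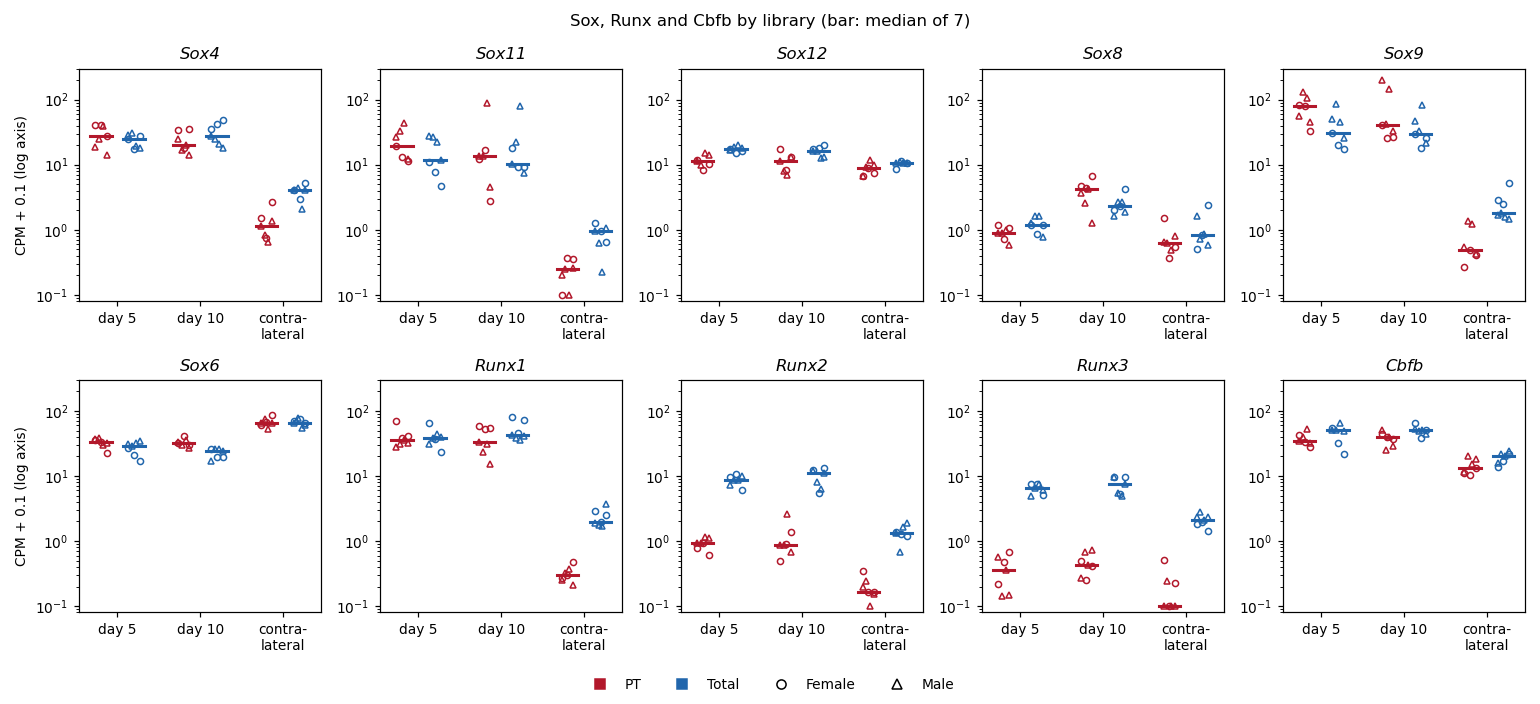
Level of each of the 10 genes in every library, as CPM + 0.1 on a log axis; red symbols are PT, blue symbols Total, circles females, triangles males, and bars the median of 7 libraries. Runx1, Runx2, Sox9, Sox11 and Sox4 stand above contralateral libraries in both fractions at both days, though Runx2, like Runx3, stays low in PT in every state.

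Among the Runx genes the promoters are shown first, because the same letters recur in their upstream promoters. RefSeq gives 2 promoter windows for Runx1, 1 for Runx2 and 2 for Runx3, each from 250 bases before to 50 bases after a transcription start, in build GRCm38.p6. Capitals mark the RUNX binding letters TGTGGT or their reverse complement ACCACA, searched on both strands. The upstream windows, 5′ to 3′ on the strand of the gene, are these:
Runx1 (chr16:92826025-92826324, minus strand): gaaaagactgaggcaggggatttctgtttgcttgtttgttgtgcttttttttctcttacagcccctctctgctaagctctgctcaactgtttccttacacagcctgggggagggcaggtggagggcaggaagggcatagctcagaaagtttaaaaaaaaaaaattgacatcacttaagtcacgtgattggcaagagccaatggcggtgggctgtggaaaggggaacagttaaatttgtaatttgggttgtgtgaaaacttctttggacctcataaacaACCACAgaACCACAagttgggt
Runx2 (chr17:44814578-44814877, minus strand): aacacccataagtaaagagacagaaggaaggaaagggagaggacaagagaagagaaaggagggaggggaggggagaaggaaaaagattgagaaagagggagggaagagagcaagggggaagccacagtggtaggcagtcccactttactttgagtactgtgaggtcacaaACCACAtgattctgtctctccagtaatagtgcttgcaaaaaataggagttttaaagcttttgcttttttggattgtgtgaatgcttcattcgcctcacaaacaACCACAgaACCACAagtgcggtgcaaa
Runx3 (chr4:135120395-135120694, plus strand): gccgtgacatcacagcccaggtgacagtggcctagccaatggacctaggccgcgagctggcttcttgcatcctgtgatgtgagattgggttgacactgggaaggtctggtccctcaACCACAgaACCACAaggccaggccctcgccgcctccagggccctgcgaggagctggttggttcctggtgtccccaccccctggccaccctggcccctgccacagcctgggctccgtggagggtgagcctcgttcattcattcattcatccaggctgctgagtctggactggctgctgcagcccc
The downstream Runx1 window, shown as the contrast within the same gene, has no such letters:
Runx1 (chr16:92697280-92697579, minus strand): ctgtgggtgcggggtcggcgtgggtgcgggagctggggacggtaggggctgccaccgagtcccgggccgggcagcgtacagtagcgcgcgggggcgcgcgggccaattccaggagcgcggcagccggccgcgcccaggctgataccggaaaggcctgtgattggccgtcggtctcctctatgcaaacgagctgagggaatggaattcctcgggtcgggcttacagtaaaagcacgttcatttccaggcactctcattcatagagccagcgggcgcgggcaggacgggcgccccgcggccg

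Each of the 3 upstream windows holds 2 copies of ACCACA that start 8 bases apart, within the shared run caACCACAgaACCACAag. The copies begin 28 and 36 bases after the start of Runx1 and 23 and 31 bases after that of Runx2, but 134 and 126 bases before that of Runx3. Runx2 has a further single copy 80 bases before its start. Of 32817 promoter windows of that length, 16.8% hold at least 1 copy on either strand, and 7 windows, or 0.0213%, hold copies spaced in this way. The spacing was taken from the Runx windows, which are 3 of these 7, so that the share is a description and no test. One of the other windows, that of Gm16225, overlaps the Runx3 window on the opposite strand. The downstream Runx3 window has none. Of 16 windows of 9 members, 5 windows of 4 genes hold RUNX letters. The gene besides the Runx genes is Sox6, which fell with obstruction. The windows of Sox4 and Sox11, which rose, hold none. Binding letters of SOX, TEAD and STAT were found in 6, 4 and 2 of the 16 windows, and those of AP-1 and NF-kB in 0. A link between such letters and the changes was not tested. These are matches of letters, and the deposited counts are per gene, so that transcripts from the upstream and downstream promoters of Runx1 cannot be told apart.

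Runx1, the factor best known from blood stem cells, was among the most changed genes of the set. In Total it ran from 22.9 to 65.4 CPM at day 5 (median 38.4) and from 35.5 to 81.2 CPM at day 10 (median 42.8), against 1.62 to 3.64 CPM in contralateral kidneys (median 1.86). Every obstructed library lay above every contralateral one. Runx1 rose in Total by 4.11 ± 0.23 at day 5 (edgeR adjusted p = 1.31e-12) and by 4.49 ± 0.24 at day 10 (edgeR adjusted p = 2.48e-13). In PT it ran from 27.5 to 69.6 CPM at day 5 (median 35.5) and from 15.4 to 58.5 CPM at day 10 (median 33.6), against 0.108 to 0.379 CPM in contralateral kidneys (median 0.198). The contralateral PT libraries held 24 Runx1 counts in all, and the groups did not overlap. The fitted change in PT was 7.46 ± 0.26 at day 5 and 7.35 ± 0.26 at day 10, ranks 12 and 21 from the top of 14932 genes.

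Runx2, a master regulator of bone cells, and Runx3 reached lower mean levels per gene length than Runx1 in obstructed PT. Runx2 ran in Total from 5.93 to 10.5 CPM at day 5 and from 5.36 to 13.3 CPM at day 10, against 0.571 to 1.79 CPM in contralateral kidneys. It rose there by 2.76 ± 0.25 and 2.97 ± 0.26 at the 2 days (edgeR adjusted p = 2.73e-09 and 6.57e-10), without overlap of the groups. In PT Runx2 ran from 0.517 to 1.05 CPM at day 5 and from 0.398 to 2.52 CPM at day 10. All these values lay above the contralateral range of 0 to 0.251 CPM, which rests on 10 counts in all. Its fitted changes in PT were 3.00 ± 0.51 and 3.27 ± 0.50. The highest day 10 value, 2.52 CPM, came from male replicate 3, and the next was 1.27 CPM.

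Runx3, the member known from T cells, ran in Total from 4.88 to 7.54 CPM at day 5 and from 4.88 to 9.63 CPM at day 10, against 1.33 to 2.67 CPM in contralateral kidneys. It rose by 1.68 ± 0.20 and 1.92 ± 0.20 (edgeR adjusted p = 1.67e-07 and 1.84e-08), and the groups did not overlap. In PT its highest value was 0.591 CPM at day 5 and 0.627 CPM at day 10, against 0.418 CPM in contralateral kidneys, whose median was 0. With 9 counts over the 7 contralateral PT libraries its fitted changes in PT, 1.80 ± 0.78 and 2.13 ± 0.76, rest on few reads. The day 10 value was 3.36 without contralateral male replicate 2 and 2.79 without contralateral female replicate 1.

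Cbfb, the partner subunit, changed less. In Total it ran from 21.7 to 65.6 CPM at day 5 and from 37.7 to 64.3 CPM at day 10, against 13.7 to 23.7 CPM in contralateral kidneys. It rose by 1.20 ± 0.17 at day 5 and 1.41 ± 0.17 at day 10 (edgeR adjusted p = 1.97e-06 and 1.83e-07). At day 5 the lowest obstructed library lay within the contralateral range, and without female replicate 1 of day 5 the change was 0.99, under 2-fold. In PT it ran from 27.7 to 53.0 CPM at day 5 and from 24.7 to 51.3 CPM at day 10, above all contralateral values of 10.1 to 20.2 CPM, with a fitted change of 1.43 ± 0.17 at both days.

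The make-up of the Runx family per gene length followed from these levels. Runx1 made up a median of 95.2% of the summed RPKM of the 3 Runx genes in PT at day 5 and 95.6% at day 10, against 52.8% in contralateral PT, where the share ran from 11.2 to 100% on a handful of counts. In Total its share was 59.1% at day 5 and 64% at day 10, against 23.7% in contralateral kidneys. There Runx3 was the leading Runx gene, with a median of 56% of the summed RPKM, and held 23.5% at day 5 and 20.5% at day 10. The ranges of the Runx1 share in Total, 53.9 to 68.3% and 52.9 to 70.2% in obstructed kidneys against 19.1 to 34.5% in contralateral ones, did not overlap.

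**Figure D2:**
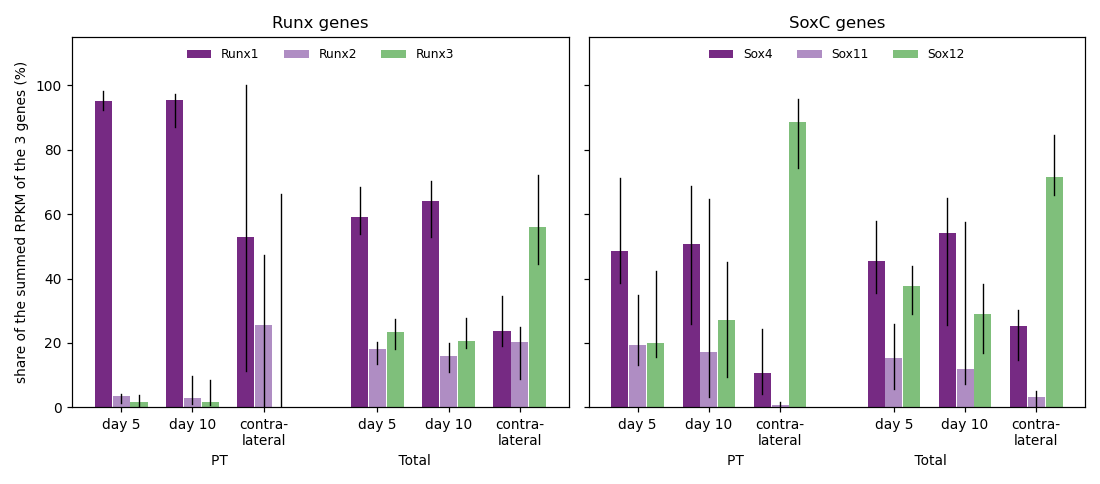
Share of each Runx gene (left) and each SoxC gene (right) in the summed RPKM of its family, in percent; bars are medians of 7 libraries and lines run from the lowest to the highest library. Runx1 takes a median of 95.2% in PT at day 5, and Sox12 takes a median of 88.6% of the SoxC sum in contralateral PT.

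Of the SoxC genes, Sox4, which acts in progenitors of many tissues, ran in Total from 17.0 to 30.9 CPM at day 5 and from 18.1 to 48.9 CPM at day 10, against 1.99 to 5.08 CPM in contralateral kidneys. It rose by 2.63 ± 0.20 and 3.05 ± 0.20 (edgeR adjusted p = 9.52e-11 and 7.64e-12), and no libraries overlapped. In PT Sox4 ran from 13.9 to 40.5 CPM at day 5 and from 14.2 to 34.7 CPM at day 10, against 0.555 to 2.59 CPM in contralateral kidneys. Its fitted change in PT was 4.61 ± 0.31 at day 5 and 4.26 ± 0.30 at day 10.

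Sox11, a gene of embryonic and neuronal progenitors, ran in Total from 4.67 to 27.9 CPM at day 5 (median 11.7) and from 7.47 to 80.2 CPM at day 10 (median 10.1), against 0.125 to 1.19 CPM in contralateral kidneys (median 0.854). It rose by 4.09 ± 0.57 and 4.66 ± 0.57 (edgeR adjusted p = 8.08e-06 and 1.77e-06), without overlap. In PT it ran from 11.5 to 43.4 CPM at day 5 (median 19.4) and from 2.67 to 88.2 CPM at day 10 (median 13.3), against 0 to 0.264 CPM and 15 counts in all in contralateral kidneys. Male replicate 3 of day 10 was the highest library in both fractions, with 88.2 CPM in PT and 80.2 CPM in Total, and the next highest were 16.5 and 22.6 CPM. Without that library the day 10 change was 6.15 against 6.89 ± 0.82 in PT, and 4.06 against 4.66 in Total.

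Sox12, the third SoxC gene, was the one already present in contralateral kidneys and moved little. In Total it ran from 15.0 to 20.3 CPM at day 5 and from 12.6 to 19.6 CPM at day 10, against 8.37 to 11.2 CPM in contralateral kidneys. All obstructed libraries lay above the contralateral ones, and the changes of 0.71 ± 0.11 and 0.66 ± 0.11 (edgeR adjusted p = 1.2e-05 and 2.66e-05) stayed under 2-fold. With libraries scaled by size alone they were 1.15 and 1.01, past 2-fold. In PT it averaged 11.5 ± 2.41 CPM at day 5 and 11.1 ± 3.72 CPM at day 10, against 8.53 ± 1.86 CPM in contralateral kidneys (SD, n = 7), with overlapping ranges. Sox12 accordingly made up a median of 20.1% of the SoxC RPKM in PT at day 5 and 27.2% at day 10, against 88.6% in contralateral PT. Sox4 made up 48.7% and 50.6% in obstructed PT, against 10.6% in contralateral PT.

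Sox9, the SoxE gene known from injured and regenerating tubules, ran in Total from 17.2 to 86.5 CPM at day 5 (median 30.7) and from 18.1 to 82.8 CPM at day 10 (median 29.3), against 1.37 to 5.2 CPM in contralateral kidneys (median 1.71). It rose by 3.89 ± 0.33 at day 5 and 3.88 ± 0.33 at day 10 (edgeR adjusted p = 3.14e-09 and 2.43e-09) and no libraries overlapped. In PT it ran from 33.3 to 132 CPM at day 5 (median 79.1) and from 25.7 to 202 CPM at day 10 (median 40.1), against 0.167 to 1.26 CPM in contralateral kidneys (median 0.396). Its fitted change in PT was 7.24 ± 0.54 at day 5 and 6.83 ± 0.54 at day 10. At day 10 male replicates 1 and 3 held 202 and 148 CPM, and the other 5 held at most 41.6 CPM.

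The levels of Sox9, Sox11, Sox4, Sox6 and Runx1 are given for PT libraries of high and low Lars2 level. A division of the 21 PT libraries at the widest gap that left at least 5 on each side, chosen after the data were seen, put 11 libraries at 11770 CPM of Lars2 or more and 10 at 7957 CPM or less. At day 5 Sox9 had a median of 44.6 CPM in the 3 high-Lars2 libraries and 94.3 CPM in the 4 low ones, without overlap. At day 10 the medians were 36.4 CPM in the 4 high and 148 CPM in the 3 low libraries, and the ranges overlapped. The lowest Sox9 value of day 10, 25.7 CPM, was in a low library. In contralateral PT the Sox9 medians were 0.387 CPM in high and 0.396 CPM in low libraries. Sox11 had medians of 12.1 and 25.8 CPM at day 5 and of 8.26 and 16.5 CPM at day 10 in high and low libraries. Its ranges overlapped at both days. Sox4 had medians of 18.8 and 39.8 CPM at day 5 and of 25.6 and 20.3 CPM at day 10, also with overlap. Sox6 ran from 26.8 to 32.1 CPM in high and from 33.3 to 40.8 CPM in low libraries at day 10, and from 52.0 to 64.3 CPM in high and from 68.2 to 85.5 CPM in low libraries of contralateral kidneys, without overlap in either. At day 5 its ranges overlapped. Runx1 had medians of 31.7 CPM in high and 36.9 CPM in low libraries at day 5, and of 38.4 and 33.6 CPM at day 10. The share of all genes that this division separates without overlap was not computed, so that nothing is read from the separations. The part of the Lars2 level in these values was not tested.

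Sox8, the other SoxE gene, had the largest fitted difference between the days in PT among the 10 genes, in a fraction whose changes chose it. In PT it ran from 1.17 to 6.61 CPM at day 10 (median 4.17), against 0.483 to 1.1 CPM at day 5 (median 0.797). Every day 10 library lay above every day 5 library, though the lowest, male replicate 4, was close to the highest of day 5. The fitted day 10 over day 5 change was 2.19 ± 0.33, and it was 1.95 in the high-Lars2 libraries alone. Contralateral PT libraries held 0.264 to 1.42 CPM, so that all day 5 libraries lay within the contralateral range and the lowest day 10 library overlapped it, and the fitted changes against it were 0.41 ± 0.35 at day 5 and 2.60 ± 0.34 at day 10. In Total Sox8 ran from 1.52 to 4.18 CPM at day 10 and from 0.664 to 1.53 CPM at day 5, against 0.413 to 2.32 CPM in contralateral kidneys. It rose in Total at day 10 by 1.35 ± 0.35 (edgeR adjusted p = 0.00184) and was not called at day 5, with 0.15 ± 0.36 (edgeR adjusted p = 0.732).

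Sox8 shares sequence with a neighbour. In the GENCODE M21 annotation the antisense gene 2810468N07Rik overlaps 329 of the 3118 exonic bases of Sox8, or 10.6%, on the opposite strand, and the strand setting of the counting is not given in the sources used here. The 7 PT libraries held 161 counts of 2810468N07Rik in all at day 10 and 32 at day 5, against 1 in contralateral kidneys, and Total held 202 and 76, against 12. Reads from the shared bases cannot be told apart without strand, so that the Sox8 values may hold reads of its partner or lack reads from those bases. Of the other members, Sox4 overlaps Gm26735 on the opposite strand over 54.6% of its exonic bases, and Gm26735 had 0 counts in every library. Runx2 and Runx1 overlap antisense genes over 5.87% and 0.881% of their exonic bases. Runx2os1 held 65 counts in Total and 5 in PT at day 10, and Gm26626, the partner of Runx1, held 13 and 30.

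Sox6, a SoxD gene known from cartilage and red blood cells, was the only member that fell. In Total it ran from 16.7 to 34.8 CPM at day 5 and from 17.2 to 26.3 CPM at day 10, against 54.4 to 77.2 CPM in contralateral kidneys. It fell by 1.4 ± 0.13 at day 5 and by 1.59 ± 0.13 at day 10 (edgeR adjusted p = 3.37e-09 and 3.49e-10). In PT it ran from 22.5 to 37.8 CPM at day 5 and from 26.8 to 40.8 CPM at day 10, all below the contralateral range of 52.0 to 85.5 CPM, with fitted changes of -1.08 ± 0.13 and -1.07 ± 0.13. Scaling by library size alone left the fall at -0.60 and -0.63 in PT at days 5 and 10 and at -0.95 in Total at day 5, under 2-fold.

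**Figure D3:**
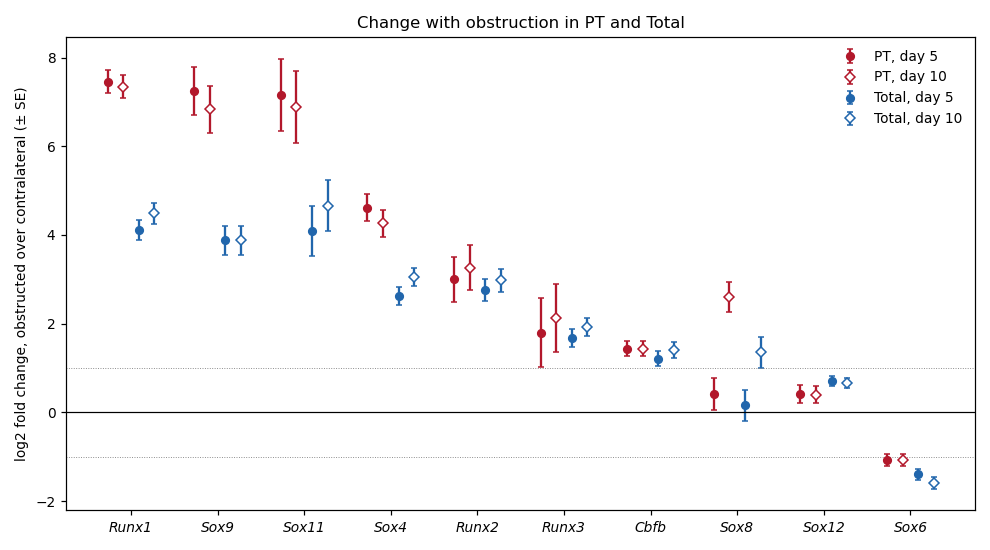
Log2 fold change of the 10 genes, obstructed over contralateral, with standard error; red is PT, blue Total, filled circles day 5 and open diamonds day 10, and dotted lines mark 2-fold. Runx1, Sox9, Sox11 and Sox4 lie higher in PT than in Total at both days, and Sox6 lies below 0 throughout.

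Counted over the set, 7 of the 10 genes were called higher and 1 lower in Total at day 5, where 19.2% of the 16782 genes tested were called higher and 13.3% lower. At day 10, 8 were called higher and 1 lower, against 20.9% and 13.8% of all genes. All 7 Total libraries lay to 1 side of all 7 contralateral ones for 8 members at day 5 and 9 at day 10, against 28.6% and 29.7% of all genes. In PT, where the set was chosen, 6 members were called higher and 1 lower at day 5, beside 18.2% and 12.4% of 14932 genes. At day 10 PT had 8 called higher and 1 lower, beside 19.7% and 12% of genes. Between day 10 and day 5, Sox8 was past the threshold in PT, beside 0.422% of genes, and nothing is read from that count. In Total edgeR called none of the 10 between the days, beside 0.393% of genes. Sox4 and Sox8 had an unadjusted p under 0.05 there, and DESeq2 called Sox8 while limma-voom called none. Each contralateral library served both days, so that the day 5 and day 10 changes share their controls.

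Set against Total, the members split by fraction. These differences reuse the PT values on which the set was chosen, and are given as a description without a test. In contralateral kidneys 6 of the 10 were past the threshold on the lower side in PT: Runx1 by 3.34 ± 0.31, Runx2 by 3.65 ± 0.44, Runx3 by 4.63 ± 0.50, Sox11 by 2.40 ± 0.95, Sox9 by 2.23 ± 0.52 and Sox4 by 1.65 ± 0.27 on the log2 scale, where 22.9% of 17110 genes were called lower. Sox11 was past the threshold in only 5 of the 14 fits with a library left out, and not with limma-voom, without a low-count filter or on log2(RPKM + 1). Without contralateral PT male replicate 2 the Runx3 difference was -5.84, and without female replicate 1 it was -5.28. For Sox6 the difference was 0.00 ± 0.13.

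In obstructed kidneys Runx2 and Runx3 remained far below Total. At day 5 the PT minus Total difference was -3.43 ± 0.32 for Runx2 and -4.54 ± 0.40 for Runx3, where 23.8% of genes were called lower. At day 10 it was -3.31 ± 0.31 and -4.39 ± 0.39, where 23.0% were. Runx1, in contrast, differed by -0.02 ± 0.19 at day 5 and -0.45 ± 0.19 at day 10, Sox4 by 0.33 ± 0.22 and -0.40 ± 0.22, and Sox11 by 0.64 ± 0.52 and -0.11 ± 0.51, none past the threshold. For Sox9 the difference was 1.11 ± 0.35 at day 5, past the threshold, where 4.02% of genes were called higher, and 0.77 ± 0.35 at day 10, not past it. With libraries scaled by size alone the day 5 difference of Sox9 was 0.86, under 2-fold. In bulk RNA, fewer cells of a type and less RNA per cell cannot be told apart.

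Marker levels are set beside these values. The median PT minus Total difference at day 5 was -4.37 over 13 macrophage markers, -4.07 over 15 lymphocyte markers, -4.56 over 9 fibroblast markers and -4.05 over 7 endothelial markers. All members of these lists were called lower in PT, where 23.8% of all genes were. The medians of other tubule segments were alike, with -4.14 over 5 loop and distal tubule markers and -4.29 over 7 collecting duct markers. At day 10 the medians of these 6 lists ran from -4.34 to -3.36, beside -3.31 for Runx2 and -4.39 for Runx3. Over 4 podocyte markers the medians were smaller in size, at -1.49 at day 5 and -1.33 at day 10. The markers were not absent from PT. Macrophage markers summed to 47.8 to 78.7 CPM in PT at day 5 and 61.3 to 160 CPM at day 10, against 7.52 to 15.7 CPM in contralateral PT, with none at 0 in all libraries. Of the 13, 12 were called higher in PT at each day, as were 8 of 8 tested fibroblast markers, where 18.2% and 19.7% of all genes were. The fibroblast sum ran from 32.9 to 59.7 CPM and 50.4 to 90.4 CPM, against 6 to 10.6 CPM. Lymphocyte markers summed to 4.17 to 9.54 CPM and 4.22 to 9.82 CPM, against 0.27 to 1.33 CPM in contralateral PT. In Total at day 10 the sums had medians of 1590 CPM for macrophages, 53.9 CPM for lymphocytes and 1180 CPM for fibroblasts, against 99.1, 9.46 and 125 CPM in contralateral kidneys. The part of such cells, or of cells of other tubule segments, in the Runx2 and Runx3 values, in either fraction, was not tested.

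**Figure D4:**
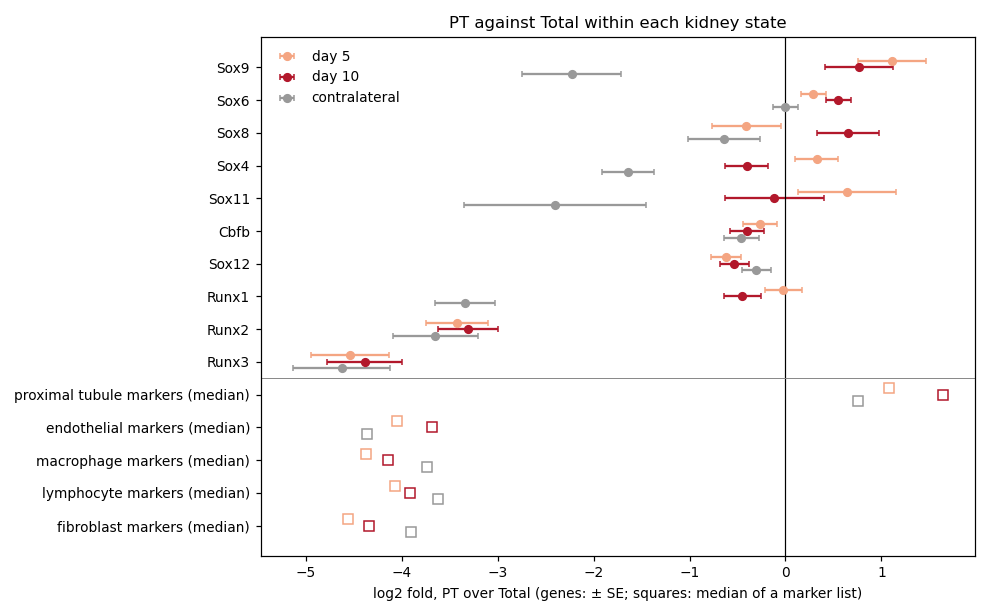
Log2 fold of PT over Total in each kidney state, for the 10 genes with standard error (dots) and as medians of marker lists (open squares). Runx2 and Runx3 stay between -4.63 and -3.31 in all states, while Runx1 lies at -3.34 in contralateral kidneys and at -0.02 at day 5.

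The difference between the fractions in the change itself holds the PT values that chose the set, and is described only. The change in PT exceeded that in Total at day 5 by 3.34 ± 0.63 for Sox9, 3.32 ± 0.37 for Runx1 and 1.97 ± 0.35 for Sox4, which passed the threshold, beside 3.02% of 17110 genes in that direction. At day 10 the differences were 3.00 ± 0.63, 2.89 ± 0.37 and 1.24 ± 0.35 for the same 3 genes, beside 4.68% of genes. Sox11 showed 3.04 ± 1.08 and 2.29 ± 1.09 without passing by edgeR. At day 5 it passed with DESeq2 (3.01), with Lars2 as a covariate (3.08), in a fit of only the groups compared (3.11) and with the replicate block (3.06). Runx2 showed 0.22 and 0.34, and Runx3 0.09 and 0.24, none past the threshold. Standard errors are left out for these 2 genes, which held 10 and 9 contralateral PT counts. For Runx3 at day 5 the error taken from F, 0.31, was below those of both fraction differences it combines, 0.50 and 0.40. Both scales start from low contralateral PT counts, and on log2(RPKM + 1), which damps low values, the day 10 differences of Runx1 and Sox4 were -0.33 and -0.07.

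The sexes were compared in PT. In contralateral kidneys edgeR called no member, beside 4.13% of 14932 genes, with only Cbfb at an unadjusted p under 0.05, and DESeq2 and limma-voom called none. At day 5 none was called, beside 0.851% of genes, with Runx1 alone at an unadjusted p under 0.05 and none by DESeq2 or limma-voom. At day 10 Runx1 was called higher in females, beside 0.676% of genes. Its level was 58.5, 52.0 and 53.6 CPM in females, against 33.6, 23.2, 30.7 and 15.4 CPM in males, without overlap. The difference was 1.08 ± 0.24 (edgeR adjusted p = 0.0156). In the same comparison 3 of 10 proximal tubule markers were called lower in females, where 1.55% of all genes were, with a median difference of -0.60. The median over 13 macrophage markers was 0.46 with none called. The part of both marker lists in the Runx1 difference was not tested. Runx1 was not called without female replicate 1 or 3 or male replicate 4, with 1.03, 1.08 and 0.90.

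The same order of the sexes was seen for Runx1 in PT at day 5, with 69.6, 38.4 and 41.2 CPM in females, against 27.5, 31.3, 35.5 and 31.7 CPM in males, a difference of 0.66 ± 0.24 that was not called (edgeR adjusted p = 0.279). In Total at day 10 Runx1 had 81.2, 46.1 and 72.3 CPM in females, against 42.8, 38.4, 35.5 and 40.5 CPM in males, again without overlap, and at day 5 the sexes overlapped. Sox4 and Sox12 in Total at day 10 were likewise higher in every female library than in any male one. So was Lars2, at 25800 to 30800 CPM in females against 1710 to 24500 CPM in males. Sox6 and Sox11 in Total at day 5 had the opposite order, with every female library below every male one. In contralateral Total the females lay above the males for Sox9 and below them for Runx3. The share of all genes whose sexes do not overlap was not computed, for PT or Total. The sexes were not tested in Total, and the part of the Lars2 level in these values was not tested either. Sox9 leaned the other way in PT at day 10, with 40.1, 25.7 and 26.3 CPM in females, against 202, 41.6, 148 and 32.8 CPM in males. That difference of -1.78 ± 0.55 was not called by edgeR (adjusted p = 0.108), and DESeq2 called it. Sox8 at day 10 had 4.54, 4.33 and 6.61 CPM in females, against 3.62, 2.46, 4.17 and 1.17 CPM in males, a difference of 0.86 ± 0.42 that was not called (edgeR adjusted p = 0.428).

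**Figure D5:**
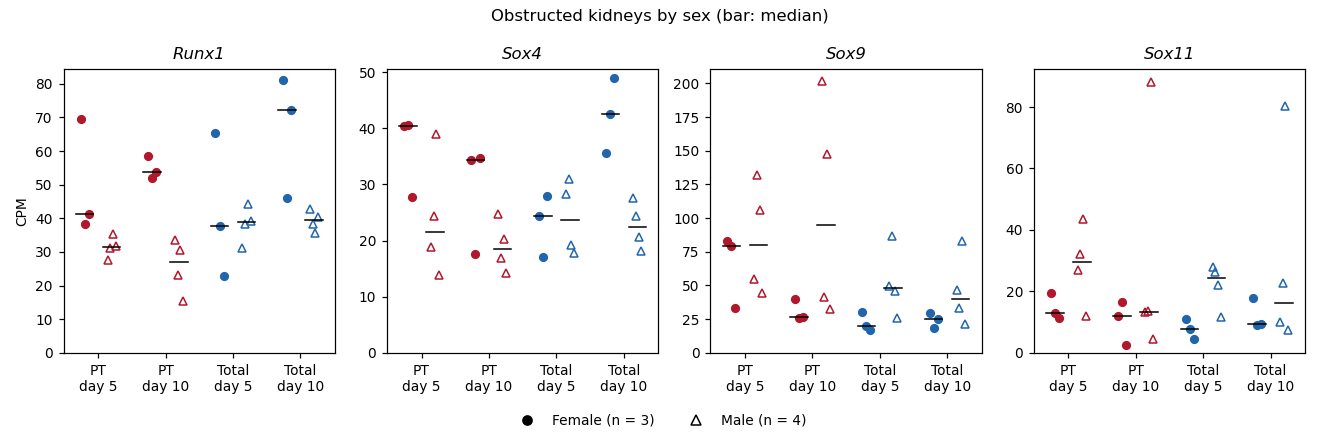
CPM of Runx1, Sox4, Sox9 and Sox11 in obstructed kidneys by sex, on linear axes that start at 0; filled circles are the 3 female libraries, open triangles the 4 male libraries, and bars medians. Female Runx1 values lie above all male values in PT at both days, and 2 male libraries stand high for Sox9 in PT at day 10.

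The genes most like 4 of the members were sought by the root mean square difference of their centred log2 group means over the 12 groups of sex, state and fraction, among 12088 genes that reached 5 CPM in a group. Nearest to Runx1 were Egr1, an immediate early transcription factor, Edn1, which encodes endothelin, and Cp, ceruloplasmin, at 0.373, 0.402 and 0.435, where the median gene stood at 2.81. Sox4 was nearest to Samd4, Casp4, an inflammatory caspase, and the actin crosslinker Actn1, at 0.253, 0.281 and 0.285, against a median of 1.87. For Sox9 the nearest was another member, Sox11, at 0.465, then Traf1, an adaptor of TNF receptors, at 0.556, and the small heat shock protein Hspb1, at 0.562, against 2.66. For Sox8 they were H2-Q2, a class I antigen gene, BC039771 and 4930523C07Rik, at 0.346, 0.355 and 0.53, against 1.04. H2-Q2 averaged 9.51 CPM in PT at day 10 and 2.19 CPM at day 5, against 2.48 CPM in contralateral kidneys.

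The lists of related genes that follow were chosen with earlier results of these data known. Genes named from them had the largest called changes in the same comparisons, so that their p-values are a description and no test. Of 14 other Sox genes 5 were abundant enough to test in Total, and Sox18 and Sox5 were called higher at day 10, where 20.9% of all genes were. Sox18, known from vessel walls, averaged 12 ± 1.81 CPM in Total at day 10, against 4.84 ± 1.34 CPM in contralateral kidneys, and rose by 1.29 ± 0.19 (edgeR adjusted p = 2.21e-06). Sox5, a SoxD relative of Sox6, averaged 8.09 ± 2.38 CPM, against 3.68 ± 0.916 CPM, and rose by 1.10 ± 0.21 (edgeR adjusted p = 9.29e-05), opposite in direction to Sox6. In PT 4 were tested at day 10 and Sox7, an endothelial factor, was called higher, where 19.7% of all genes were, with 0.813 ± 0.495 CPM, against 0.119 ± 0.103 CPM. Endothelial markers summed to 9.84 to 17.6 CPM in PT at day 10, against 3.9 to 10.2 CPM in contralateral PT, and 4 of the 7 were called higher.

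Of 17 genes of RUNX cofactors tested in Total at day 10, 2 were called higher and 2 lower, where 20.9% and 13.8% of all genes were, with a median change of 0.14 beside 0.06 over all genes. The corepressor genes Tle6 and Tle1 rose, Tle6 by 2.06 ± 0.28 (edgeR adjusted p = 9.11e-07) and Tle1 to 17.6 ± 5.5 CPM, against 7.12 ± 1.77 CPM (1.29 ± 0.18, edgeR adjusted p = 1.93e-06). The corepressor Ncor1 fell in Total by 1.07 ± 0.13 (edgeR adjusted p = 1.75e-07) and in PT by 1.15 ± 0.15 (edgeR adjusted p = 1.59e-06), to 158 ± 30.8 CPM in PT at day 10, against 355 ± 81.1 CPM. The kinase gene Hipk2 fell in Total by 1.16 ± 0.12 (edgeR adjusted p = 1.51e-08). In PT 2 of 16 were called higher and 3 lower at day 10, where 19.7% and 12% of all genes were. Runx1t1, a corepressor known from leukaemia fusions, fell there by 1.45 ± 0.19 (edgeR adjusted p = 1.73e-06), to 3.54 ± 1.11 CPM, against 9.03 ± 2.23 CPM.

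Of 17 tested genes known as RUNX targets in blood and bone, 12 were called higher and 1 lower in Total at day 10, where 20.9% and 13.8% of all genes were, with a median change of 2.02 beside 0.06 over all genes, and the list holds macrophage genes such as Csf1r, which also stands among the macrophage markers. In PT 6 of 12 tested were called higher and 2 lower, where 19.7% and 12% of all genes were, with a median of 1.13 beside 0.05. Spp1, osteopontin, averaged 33400 ± 16700 CPM in PT at day 10, against 2240 ± 2060 CPM in contralateral kidneys (4.22 ± 0.27, edgeR adjusted p = 6.61e-11). Socs3, a brake on cytokine signalling, had 14.1 ± 5.17 CPM, against 0.427 ± 0.249 CPM (4.99 ± 0.34, edgeR adjusted p = 1.66e-10). Alpl, alkaline phosphatase and a brush border enzyme of the tubule, fell in PT by 1.20 ± 0.20 (edgeR adjusted p = 2.91e-05) and in Total by 2.25 ± 0.17 (edgeR adjusted p = 1.22e-10). The integrin gene Itgae fell in PT to 0.402 ± 0.287 CPM, against 1.12 ± 0.385 CPM. Cebpe, a granulocyte factor, held 74 counts in Total at day 10 and 1 in contralateral kidneys, a ratio of 83.2 with a 95% counting interval of 14.5 to 3330.

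Most genes known as SOX9 targets in cartilage and testis were too low to test. In PT 3 of 15 listed genes were tested. At day 10 Ptgds was called higher and Hapln1 and Fgf9 lower, where 19.7% and 12% of all genes were. Hapln1 held 3 counts in PT at day 10, against 70 in contralateral kidneys. Ptgds, prostaglandin D2 synthase, averaged 122 ± 93.3 CPM in PT at day 10, against 4.01 ± 3.29 CPM (4.81 ± 0.34, edgeR adjusted p = 3.37e-10), and 35.4 ± 21.5 CPM in Total, against 4.83 ± 2.79 CPM. Fgf9, a growth factor, had 2.71 ± 0.77 CPM in PT, against 6.33 ± 0.701 CPM. The fibrillar collagen gene Col11a1 held 387 counts in Total at day 10 and 2 in contralateral kidneys, but 0.0595 ± 0.0751 CPM in PT at day 10. Among genes known as SOXC targets in neurons and tumours, 3 of 9 were called higher in Total at day 10 and 1 of 7 in PT, where 20.9% of all genes were in Total and 19.7% in PT, and none was called lower. That 1 was Tead2, a partner of YAP, with 2.34 ± 1.34 CPM in PT at day 10, against 0.0932 ± 0.104 CPM (4.76 ± 0.57, edgeR adjusted p = 5.33e-07). Tubb3, a neuronal tubulin, was at least 44.6-fold higher in Total at day 10, with 119 counts against 0 over the contralateral libraries, where the floor was 3 counts over the group. Dcx held 192 counts, against 5.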

How the data were processed

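Counts and RPKM per gene symbol were deposited by the authors for 42 libraries of RNA bound to anti-GFP beads or labelled total kidney. The submitters' processing notes name STAR 2.0.4b, Subread and featureCounts 1.4.5, and genome build, annotation and strand setting are not given in the sources used here. Counts per M counts without TMM factors, divided by deposited RPKM, gave 1 length per gene within a relative deviation of 0.000497. Deposited RPKM therefore hold no TMM scaling, unlike the printed CPM. The deposited counts went into edgeR 4.0.16 (R 4.3.3), with filterByExpr by group, TMM factors, robust quasi-likelihood fits with 1 mean per group of sex, state and fraction, sexes weighted equally, and Benjamini-Hochberg adjustment over all genes tested. The fits used the 21 PT libraries, the 21 Total libraries or, across fractions, all 42. The standard error is the change over the square root of F, which can come out too small for small changes with few counts. Printed CPM use TMM factors over all libraries. No columns were left unmapped.

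The members and lists were chosen with earlier results of these data known. Besides the 10 members, the genes named are, per list, up to 2 called rises and 2 called falls of the largest size at day 10 in Total and in PT, the 3 genes most like Runx1, Sox4, Sox8 and Sox9, opposite-strand neighbours and Lars2. Alternatives were other scaling factors, no low-count filter or one that asks 3 libraries for 5 CPM, limma-voom, DESeq2 1.42.0, and limma 3.58.1 on log2(RPKM + 1), only the groups compared, the replicate number as a block, a Lars2 covariate, no fold minimum, and each library left out. Equal replicate numbers counted as pairs only if each of the 7 pairs correlated above 0.1. This was so between day 10 and contralateral Total, and between the fractions of contralateral and of day 10 kidneys. Counting intervals and floors cover counting error only.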

Additional observations from a re-analysis of the deposited data

Results flagged for a closer look

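In 120 sets of 4 male or 7 libraries, 16 held a library of a member that lay farther from its neighbour than Dixon's 95% limit allows. Chance gives about 1 in 20 for separate sets. Here the male sets lie within the sets of 7 and some values rest on few counts, so that no excess is read from the 16. Male replicate 3 at day 10 was the high library for Sox11, with 88.2 CPM in PT, where the next was 13.5 CPM among males and 16.5 CPM over both sexes, and with 80.2 CPM in Total, where the next was 22.6 CPM. The same library held 2.52 CPM of Runx2 in PT, above 0.761 CPM in the next male and 1.27 CPM over both sexes. Among obstructed kidneys, female replicate 1 stood high for Runx1 in PT at day 5 with 69.5 CPM, female replicate 3 for Sox8 in Total at day 10 with 4.18 CPM, and male replicate 3 for Cbfb in Total at day 5 with 65.6 CPM.

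In contralateral PT, female replicate 3 was high for Sox4 with 2.59 CPM, and female replicate 1 for Sox8 with 1.42 CPM and for Runx3 with 0.418 CPM. Among males Runx3 was 0.148 CPM in replicate 2 and 0 in the others. In contralateral Total, female replicate 3 was high for Sox9 with 5.2 CPM, male replicate 4 for Runx1 with 3.64 CPM, and low were male replicate 3 for Sox4 with 1.99 CPM and female replicate 1 for Sox12 with 8.37 CPM.

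The change with obstruction differed between PT and Total for Sox4, Sox9 and Runx1. PT exceeded Total by 1.97, 3.34 and 3.32 on the log2 scale at day 5, and by 1.24, 3.00 and 2.89 at day 10. The members were chosen on the PT side of these differences.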

How the results depend on the processing

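Of 3688 values of the 10 genes recomputed under the alternatives, 3612 kept their direction and side of the threshold, 50 lost a call, 24 gained one and 2 reversed. The reversals were Runx1 at -0.334 and Sox4 at -0.0656 in the day 10 difference between fractions, both with limma on log2(RPKM + 1), a scale that damps the low contralateral PT values. With that scale the called members numbered 5 for PT at day 10, 5 for Total at day 5, 0 for PT between the days, 0 for PT against Total in contralateral kidneys and 1 at day 5, 0 for the fraction differences at both days and 0 for the sexes at day 10. Limma-voom called 1 for the day 10 fraction difference. For PT between the days, a filter of 5 CPM in 3 libraries, which removes Sox8, gave 0, and so did the high-Lars2 libraries alone, an alternative chosen after seeing the data, while the low ones alone kept the call. For the sexes at day 10, DESeq2 called 2, library size alone 0 and only the groups compared 0. DESeq2 called 1 for Total between the days. Without a fold minimum 5 members differed between PT and Total at day 10.

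With each library left out, the members called ranged from 0 to 1 for the sexes at day 10, from 2 to 4 for the fraction difference at day 10, from 5 to 6 for PT against Total in contralateral kidneys and from 7 to 8 for Total at day 5; the cause was not tested. With the replicate block the members called were 9 for Total at day 10, 6 and 2 for PT against Total in contralateral and day 10 kidneys, and 2 at day 5, where Sox9 gave 0.97 and the numbers do not pair. The block could not be used between the sexes. Runx3 was removed by the filter in 6 of the 14 PT fits with a library left out. Depth limits Runx2, Runx3, Runx1 and Sox11 in contralateral PT, where 10, 9, 24 and 15 counts stand behind the values.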
